A study of Mus musculus with 6 samples.

Results

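The 10 genes described here encode S100 proteins and secreted antimicrobial or acute-phase proteins, and were read in mouse macrophages after 6 h with or without WGP. They were taken by name: Saa3, Lyz1, Lyz2, Slpi, S100a4, S100a6, S100a8, S100a9, S100a10 and S100a11. A probe belonged to a gene when its RefSeq accession on the array was that gene's. All 10 genes had a probe, 11 probes in all of 39429, and all 10 were among the 10947 genes tested. Every one of the 11 probes was well above background on every array, so no gene entered the test through only its brighter group.

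The cells were bone-marrow-derived macrophages of C57BL/6 mice aged 6 to 8 weeks, which the labels call polarized M2, the name for alternative activation, and kept for 6 h in complete DMEM without WGP (medium) or with WGP. WGP stands for whole glucan particles, yeast cell wall preparations rich in beta-glucan, which macrophages bind through C-type lectin receptors. The labels name no polarizing agent and no dose of WGP, and all samples of both groups share the polarized state. Total RNA was read on 1-colour Agilent arrays, with 3 deposited files a group, but the replicate 3 files held no hybridisation of their own. In both groups the raw signals of replicate 3 matched those of replicate 1 exactly at each of the 44397 spots, so each group has n = 2 independent arrays. The labels do not say that replicates came from separate animals or cultures, so the p-values here cover no more than the spread among these arrays, which may be technical.

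Most S100 proteins are small calcium-binding proteins that act inside the cell as dimers and, for some members, outside it as danger signals. S100a8 and S100a9 form calprotectin, which withholds zinc and manganese from microbes and is most abundant in neutrophils and monocytes. Lysozymes cut the bacterial cell wall, Slpi encodes a secretory leukocyte protease inhibitor that also dampens inflammatory signalling, and Saa3 encodes an acute-phase serum amyloid A made locally by macrophages. Calprotectin, the lysozymes, Slpi and serum amyloid A form part of the soluble defence that macrophages and neutrophils release at a site of infection.

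Across the 4 arrays, 45.0% to 50.6% of probes were well above background, and the processed signal had a 75th percentile of 56.1 to 85.8. A level is the log2 distance of a gene's processed signal from its array's 75th percentile, so a level of 0 is that percentile and each unit is a doubling. Changes are WGP minus medium on that scale, with the SE from limma, and a gene was called when its Benjamini-Hochberg adjusted p over all 10947 genes was under 0.05. Each slide carried 1 medium array, at position 1, and 1 WGP array, at position 3, and slide position and treatment therefore cannot be told apart. The 9 macrophage markers with a probe of 10 listed were well above background on all 4 arrays, whereas 6 of 12 markers of alternative activation, Arg1, Retnla, Ccl17, Ccl22, Irf4 and Pdcd1lg2, were well above background on no array. Of the others, 3 were well above background on all 4 arrays: with WGP Clec10a was 16.4-fold lower (adjusted p = 0.00138 in limma), Mrc1 1.56-fold lower (adjusted p = 0.0148) and Tgm2 13.1-fold higher (adjusted p = 0.00129). In RNA from a whole culture, fewer cells of a type and less RNA per cell cannot be told apart.

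Saa3 rose 10.6-fold, Slpi 8.87-fold and S100a10 1.59-fold, while S100a4 and Lyz2 fell 1.63-fold and 1.39-fold. The other 5 genes, Lyz1, S100a6, S100a8, S100a9 and S100a11, did not pass the test. Thus 3 of 10 genes were called higher, where 23.2% of all genes tested were, and 2 of 10 were called lower, where 17.4% were. Calls in either direction took in 5 of 10 genes, against 40.6% of all genes and 40.1% of the 9873 genes well above background on all 4 arrays. The arrays of the groups did not overlap for 9 of the 10 genes, S100a8 being the exception, against 75.1% of all genes. These shares lie near the background, so the count of calls is no result about these genes, and the size of the changes is described instead. Called changes of at least 2-fold were those of Saa3 and Slpi, both higher, where 8.05% of all genes were called higher and 6.67% lower by that much.

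**Figure D1:**
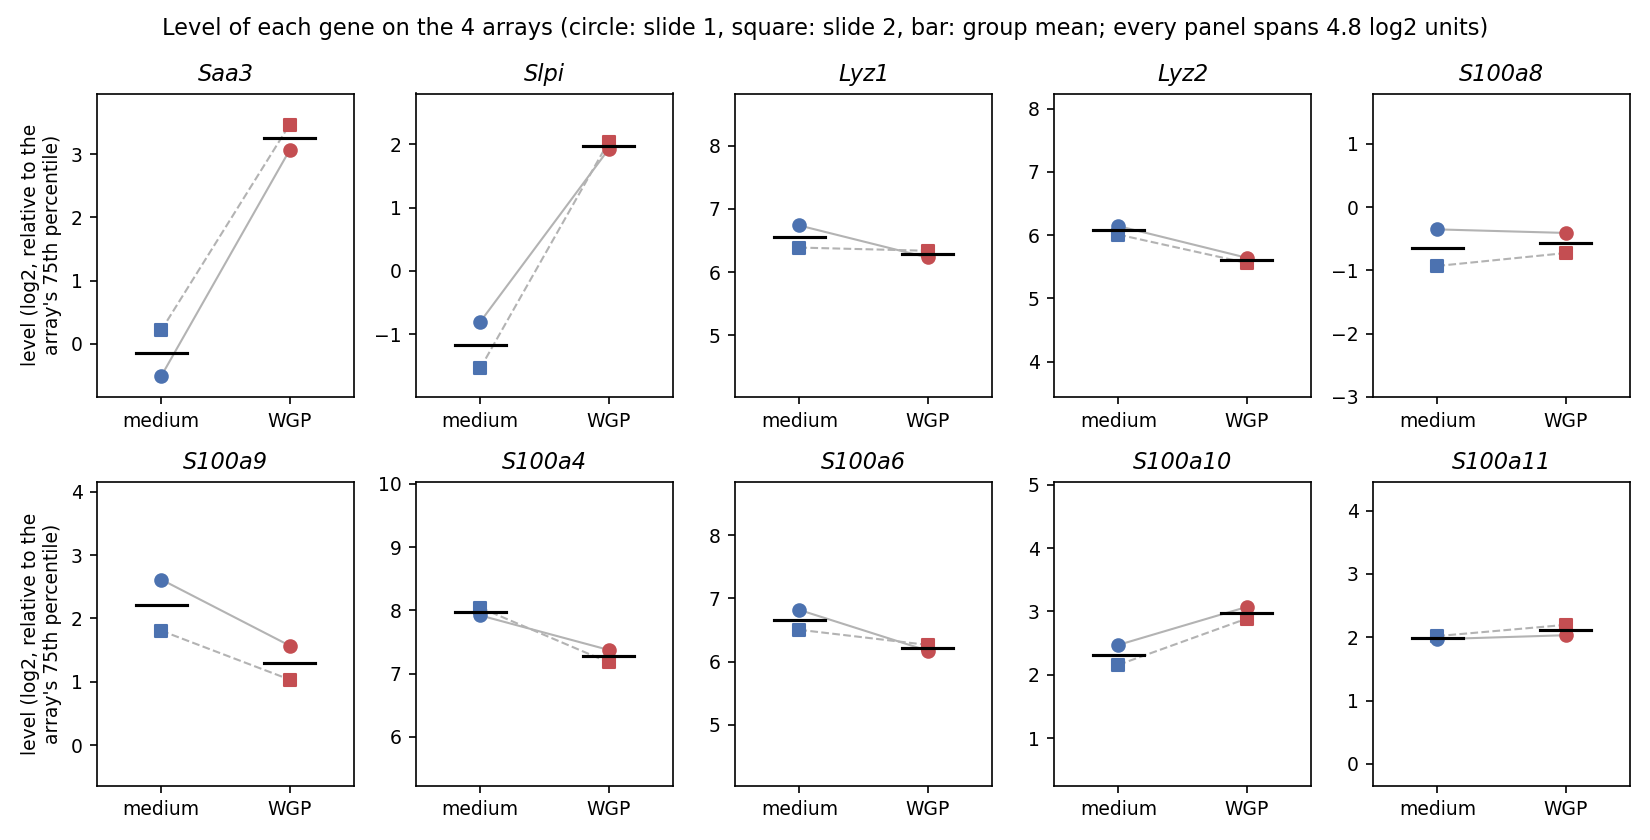
Level of each of the 10 genes on the 4 independent arrays, as log2 relative to the array's 75th percentile. Lines join the arrays of a slide and bars are group means (n = 2). Saa3 and Slpi lay far higher on both WGP arrays than on both medium arrays, and S100a8 is the gene whose groups overlap.

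Saa3, the macrophage serum amyloid A, had a processed signal of 60.4 and 79.8 on the medium arrays and of 494 and 619 on the WGP arrays. Its level was -0.51 and 0.22 on the medium arrays and 3.06 and 3.46 on the WGP arrays, so both WGP arrays lay well above both medium arrays. The group means were -0.14 ± 0.51 (SD, n = 2) and 3.26 ± 0.29, 10.6 times higher with WGP (a log2 change of 3.41 ± 0.30, SE, adjusted p = 0.00395 in limma). Within slides the rise was 3.57 on slide 1 and 3.25 on slide 2. Among the 9873 genes well above background on all 4 arrays, this was the rise of rank 21.

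Slpi, the protease inhibitor of neutrophil elastase and cathepsin G, went from processed signals of 49.1 and 23.6 in medium to 224 and 230 with WGP. Its level was -0.81 and -1.54 on the medium arrays and 1.92 and 2.04 on the WGP arrays, where the WGP arrays lay close together and the medium arrays apart. The mean rose from -1.17 ± 0.52 (SD, n = 2) to 1.98 ± 0.082, which is 8.87-fold (a log2 change of 3.15 ± 0.27, SE, adjusted p = 0.00383 in limma) and the rise of rank 34. It was 2.72 on slide 1 and 3.57 on slide 2. With background correction by normexp and 75th percentile scaling, the rises were 5.29-fold for Saa3 and 3.75-fold for Slpi. The offset of 50 added there shrinks the changes of dim probes by construction. Both genes stayed called when any array was left out (adjusted p of 0.0148 to 0.028 for Saa3 and 0.00811 to 0.0299 for Slpi).

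Because Saa3 and Slpi were the genes with the large changes, their upstream sequences are shown, each the 250 bases before the start of transcription from RefSeq on GRCm38.p6, 5′ to 3′ on the gene's own strand. Capitals mark matches to TTNNGNAA, a pattern of C/EBP sites, on either strand, and no other motif searched matched in these windows. That of Saa3 is chr7:46715677-46715926 on the minus strand and that of Slpi is chr2:164356508-164356757 on the minus strand.
Saa3: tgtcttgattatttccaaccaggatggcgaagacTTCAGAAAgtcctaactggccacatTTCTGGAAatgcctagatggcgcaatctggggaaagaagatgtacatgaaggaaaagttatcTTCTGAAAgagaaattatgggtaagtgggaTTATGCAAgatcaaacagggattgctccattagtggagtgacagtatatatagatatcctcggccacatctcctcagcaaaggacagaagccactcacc
Slpi: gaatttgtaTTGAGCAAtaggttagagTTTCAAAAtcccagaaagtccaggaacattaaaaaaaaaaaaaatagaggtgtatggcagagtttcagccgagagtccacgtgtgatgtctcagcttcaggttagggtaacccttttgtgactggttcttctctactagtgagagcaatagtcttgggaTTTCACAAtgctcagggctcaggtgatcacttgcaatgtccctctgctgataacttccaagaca

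Saa3 held 4 matches to TTNNGNAA, the nearest 99 to 92 bases before the start, and Slpi held 3, the nearest 64 to 57 bases before it. Of 32851 promoters of the same table and length, 36.8% held at least 1 match on either strand, 3.12% at least 3 and 0.801% at least 4. The other motifs were likewise searched on both strands. The kappaB consensus GGGRNNYYCC stood in 7.25% of all promoters, with R for A or G, Y for C or T and N for any base. The AP-1 motif TGANTCA stood at least 1 time in 6.75% of all promoters and 2 times in that of S100a11. The share of promoters with 2 or more was not computed. The core motif of PU.1, a factor of myeloid cells, was searched as GAGGAA and stood in 23.3% of all promoters. It stood 2 times in that of S100a8 and 1 time in that of S100a11. The TATA box was searched only as TATAAA, anywhere in the window. That string stood in 12.4% of all promoters, and 1 time each in those of S100a4 and S100a8. Among the other genes of the 10 that the table holds, the C/EBP pattern matched 2 times for S100a9 and 1 time each for S100a8, Lyz1 and Lyz2, and 0 times for S100a4, S100a6 and S100a11. A match says only that these letters stand in the window. Variants of these patterns were not searched, so a missing match does not show that such a site is absent.

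Other genes around Saa3 and Slpi moved less. Of the 3 other serum amyloid A genes listed, Saa1 rose 2.07-fold (adjusted p = 0.0405 in limma), while Saa2 had no probe past the filter on dim probes. Saa4 did not pass (adjusted p = 0.37 in limma). It was well above background on only 1 of the 2 WGP arrays, so its size is not given. Serum amyloid A genes are close copies of each other, so that a probe can take up RNA of a neighbour. Saa1 kept its call only without medium replicate 1: leaving out medium replicate 2 gave an adjusted p of 0.0596, leaving out WGP replicate 1 gave 0.112 and leaving out WGP replicate 2 gave 0.146. Of 19 genes with the WAP domain that Slpi carries, 5 passed the filter, of which Wfdc17 rose 1.51-fold (adjusted p = 0.0239) and Wfdc18 fell 1.86-fold (adjusted p = 0.0339). The median over the 4 of these 5 genes that were well above background on all 4 arrays was 0.13. Wfdc17 had an adjusted p of 0.0997 without medium replicate 2, of 0.117 without WGP replicate 1 and of 0.0958 without WGP replicate 2, all over the threshold. So did Wfdc18, at 0.0569 without medium replicate 1, 0.087 without WGP replicate 1 and 0.142 without WGP replicate 2.

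Lyz2, the lysozyme M of macrophages and neutrophils, was bright and fell slightly. Its level was 6.14 and 6.01 on the medium arrays and 5.64 and 5.56 on the WGP arrays, so the groups did not overlap. The fall was 1.39-fold (-0.47 ± 0.11, SE, adjusted p = 0.0306 in limma), with -0.50 on slide 1 and -0.45 on slide 2. No fit that left out an array called it: the adjusted p was 0.0891 without medium replicate 1, 0.0821 without medium replicate 2, 0.113 without WGP replicate 1 and 0.164 without WGP replicate 2. Scaling to the median of each array gave 0.105.

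Lyz1, the lysozyme P known from Paneth cells of the gut, was at 6.74 and 6.39 in medium and at 6.23 and 6.34 with WGP. The groups did not overlap, but the second medium array and the second WGP array lay next to each other. The change of -0.28 ± 0.16 (SE, 95% interval -0.70 to 0.15) did not pass the test (adjusted p = 0.22 in limma), and within slides it was -0.51 and -0.051. The normexp settings gave it -0.49 (adjusted p = 0.0231) with 75th percentile scaling and -0.46 (adjusted p = 0.0106) with quantile normalization, both past the threshold. The difference between the changes of Lyz1 and Lyz2 was -0.0052 on slide 1 and 0.40 on slide 2 and was not tested.

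Lyz1 and Lyz2 are neighbouring copies of a gene, and the last 100 bases before their starts show how alike they are. They are printed here from the same RefSeq table with the differing bases in capitals. The full windows of 250 bases are chr10:117292869-117293118 for Lyz1 and chr10:117282273-117282522 for Lyz2, both on the minus strand.
Lyz1: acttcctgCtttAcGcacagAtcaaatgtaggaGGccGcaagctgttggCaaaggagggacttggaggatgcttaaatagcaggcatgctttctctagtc
Lyz2: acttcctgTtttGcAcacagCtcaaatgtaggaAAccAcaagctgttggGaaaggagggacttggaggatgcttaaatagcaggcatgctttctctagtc

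The copies shared 92 of these 100 bases, and 49 of the 50 bases after the start. Over the whole 250 bases, an alignment with 4 gap positions matched at 200 of 252 positions. The sequences of the array's probes were not used here, so it is uncertain how far each lysozyme probe also bound RNA of the other gene, and the 2 lysozyme values are best read together. Of 8 other lysozyme-like genes, 4 passed the filter and 0 were called in limma, with 1 at an unadjusted p under 0.05. The 3 well above background on all 4 arrays had changes from -0.23 ± 0.14 (SE, Lalba) to 0.070 ± 0.16 (Lyzl6), and Lyzl1 was well above background on neither WGP array. The count called lower was 1 with the replicate block and with either normexp setting. Averaging the medium replicate 3 file with medium replicate 1 also gave 1, and every deposited file as its own sample gave 3.

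**Figure D2:**
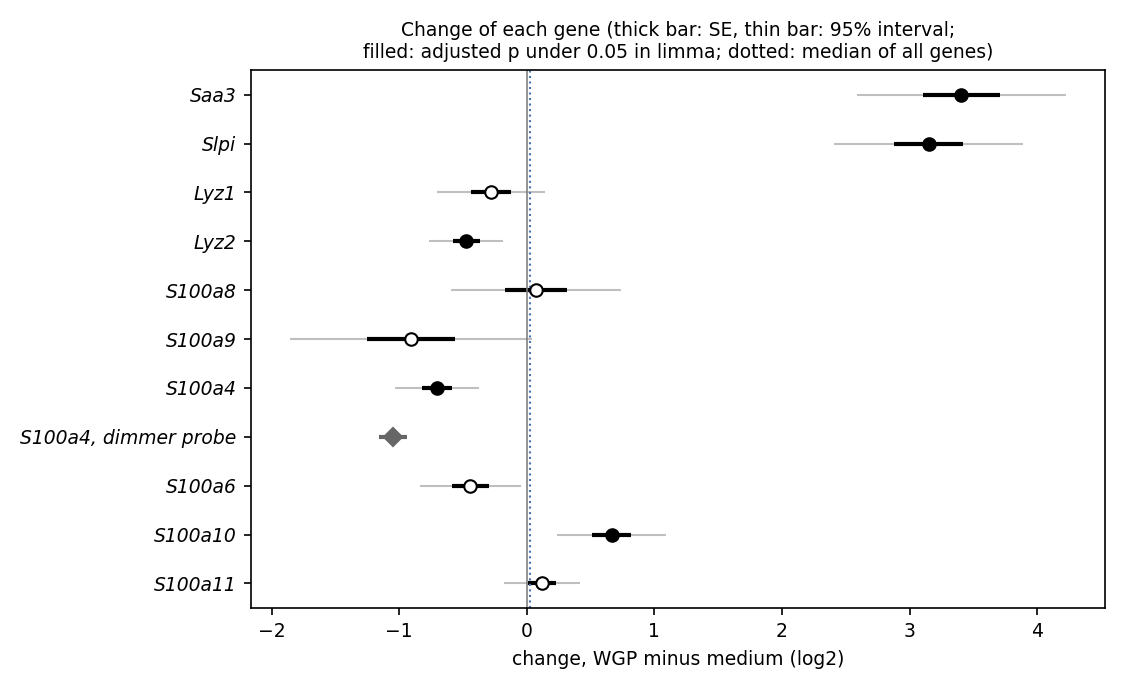
Change of each gene, WGP minus medium, on the log2 scale, with the SE (thick) and the 95% interval (thin) from limma. The dimmer S100a4 probe is drawn with its SE alone. Filled circles passed an adjusted p of 0.05 over all genes: Saa3, Slpi and S100a10 higher, Lyz2 and S100a4 lower.

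S100a4, also called metastasin or FSP1, binds myosin and is known from motile cells, and it fell on both of its probes. The brighter probe had processed signals of 20800 and 18100 in medium and of 9840 and 8140 with WGP. Its level was 7.92 and 8.04 on the medium arrays and 7.38 and 7.18 on the WGP arrays, with no overlap. The fall was 1.63-fold (-0.70 ± 0.12, SE, adjusted p = 0.0163 in limma), with -0.54 on slide 1 and -0.86 on slide 2. On the dimmer probe of the same accession the level was 6.31 and 6.38 on the medium arrays and 5.35 and 5.25 on the WGP arrays. That probe fell by 1.05 ± 0.11 (SE, adjusted p = 0.00735 over all 18442 probes kept), so the probes share the direction but not the size. On the brighter probe the adjusted p was 0.0901 with medium replicate 2 left out and 0.0951 with WGP replicate 2 left out, both over the threshold.

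S100a10, the light chain that joins annexin A2 in a membrane-bound tetramer and captures plasminogen at the cell surface, rose. Its level was 2.47 and 2.16 on the medium arrays and 3.07 and 2.89 on the WGP arrays, and the groups did not overlap. The rise was 1.59-fold (0.66 ± 0.16, SE, adjusted p = 0.034 in limma), with 0.60 on slide 1 and 0.73 on slide 2. It stayed called without medium replicate 1 but not without medium replicate 2 (adjusted p = 0.12), nor without WGP replicate 1 (0.138) or WGP replicate 2 (0.0992). Quantile normalization gave an adjusted p of 0.0574.

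S100a11, calgizzarin, a partner of annexin A1, lies near S100a10 in the genome and did not pass the test. Its level was 1.97 and 2.02 on the medium arrays and 2.03 and 2.20 on the WGP arrays. The change of 0.12 ± 0.11 (SE, adjusted p = 0.423) had a 95% interval of -0.18 to 0.42. The change of S100a10 exceeded that of S100a11 by 0.54 on slide 1 and 0.55 on slide 2, a difference that was not tested.

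S100a6, calcyclin, lies in the same S100 gene cluster as S100a4. Its level was 6.82 and 6.50 on the medium arrays and 6.17 and 6.26 on the WGP arrays, without overlap. The change was -0.44 ± 0.15 (SE, 95% interval -0.84 to -0.046, adjusted p = 0.0761 in limma), so it missed the threshold after adjustment, and within slides it was -0.64 and -0.24. Quantile normalization called it (-0.59, adjusted p = 0.0341), as did normexp followed by either scaling to the 75th percentile (-0.60, adjusted p = 0.0126) or quantiles (-0.56, adjusted p = 0.00649).

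The calprotectin genes S100a8 and S100a9 were not called. S100a9 had processed signals of 526 and 240 in medium and 176 and 115 with WGP. Its level was 2.62 and 1.81 on the medium arrays and 1.57 and 1.04 on the WGP arrays, where the arrays of each group lay far apart but the groups did not overlap. The mean was 2.21 ± 0.57 (SD, n = 2) in medium and 1.30 ± 0.38 with WGP, a difference of -0.91 ± 0.35 (SE, adjusted p = 0.107 in limma). On slide 1 it was -1.04 and on slide 2 -0.77. With the replicate number, which per the headers is also the slide, as a block, the value was -0.91 ± 0.13 (SE) and passed the test (adjusted p = 0.0187). Under normexp it also passed, whether scaled to the 75th percentile (-0.82, adjusted p = 0.0275) or by quantiles (-0.80, adjusted p = 0.0326). No fit that left out an array called it, and the size moved with the array: it was -0.50 (adjusted p = 0.261) without medium replicate 1, -1.31 (0.089) without medium replicate 2, -1.18 (0.115) without WGP replicate 1 and -0.64 (0.325) without WGP replicate 2.

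The S100a8 probe was dim, with a median pixel intensity of 114 and 72 in medium and 78 and 66 with WGP over a local background of 23 to 30. Its level was -0.35 and -0.93 on the medium arrays and -0.41 and -0.73 on the WGP arrays, and the groups overlapped. The change of 0.074 ± 0.25 (SE, adjusted p = 0.827) had a 95% interval of -0.60 to 0.74. Within slides it was -0.056 and 0.20. The change of S100a8 lay above that of S100a9 by 0.99 on slide 1 and 0.97 on slide 2, a difference that was not tested. The direction for S100a8 was the opposite without medium replicate 2 (-0.22) or WGP replicate 1 (-0.085), so these arrays give it none.

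Because S100a8 and S100a9 are typical of neutrophils, 16 neutrophil markers were looked up. Of 15 with a probe, 6 were well above background on no array, namely Ngp, Ltf, Retnlg, Itgb2l, Stfa3 and Fcnb, and 5 to 9 were on each array. The summed level of the 15, in multiples of the array's 75th percentile, was 105 to 116 in medium and 103 to 109 with WGP. Most of that sum was Csf3r, with mean log2 levels of 6.54 in medium and 6.46 with WGP, and Elane, with 3.95 and 4.01. The other markers past the filter had mean levels of -0.28 or lower in either group, so the sum says little about them. Within this list Mmp8, a neutrophil collagenase, was called higher (adjusted p = 0.0211 in limma), but it was well above background on only 1 of the 2 medium arrays, so its size is not given. Csf3r and Elane had changes of -0.083 and 0.060 that did not pass. The part of such cells in the values of S100a8 and S100a9 was not tested.

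**Figure D3:**
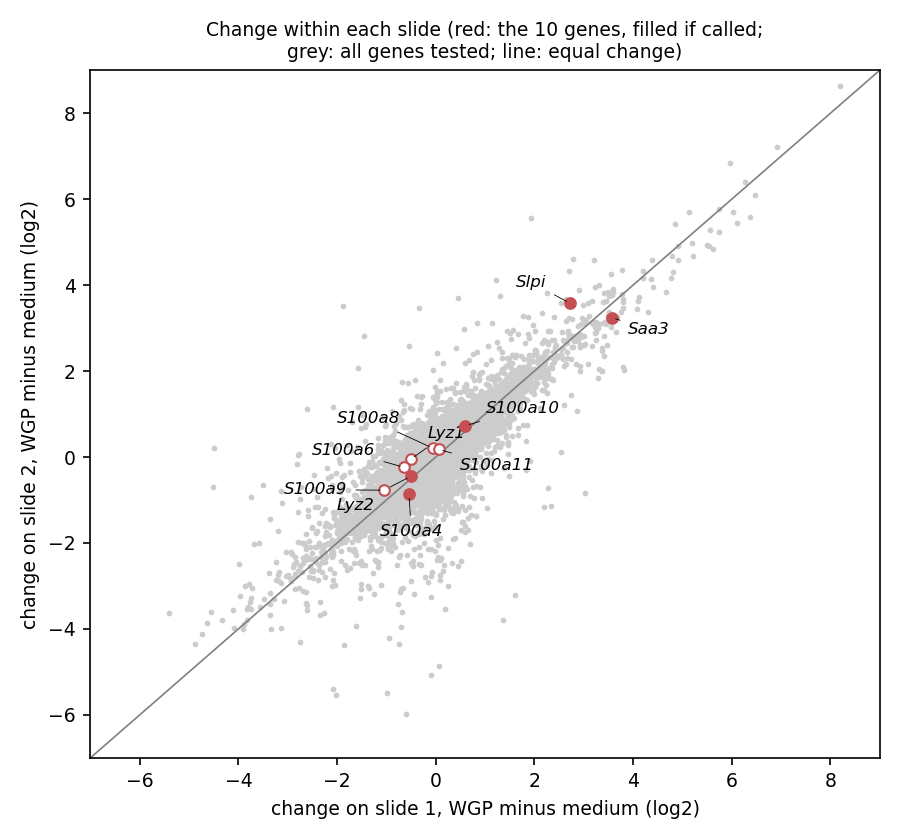
Change on slide 2 against change on slide 1, WGP minus medium on the log2 scale, for the 10 genes (red, filled when called) and all 10947 genes tested (grey). Saa3 and Slpi stand at 3.57 and 3.25 and at 2.72 and 3.57, while the other 8 genes lie between -1.04 and 0.73 on both slides.

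The remaining S100 genes were not called in the values reported, but some were called lower in other settings. Of 11 genes listed, 6 passed the filter, 5 of them S100 genes and the other S100pbp, the gene of an S100 binding protein. Limma called 0 of the 6, with 1 at an unadjusted p under 0.05 and a lowest adjusted p of 0.095, and their median change was -0.26 against 0.028 for all genes tested. The count called lower was 2 with quantile normalization and with either normexp setting. It was 1 with the mean of the kept probes of a gene and 3 with every deposited file as its own sample. S100a1, S100a3, S100a5, S100a13 and S100a16 had changes from -0.50 to -0.10. S100a13 and S100a1 had -0.35 ± 0.13 and -0.34 ± 0.15 (SE). Mean levels of S100a3, S100a5, S100a16 and S100pbp were -0.99 or lower in both groups, so the median rests in part on dim probes.

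Annexins, calcium-dependent membrane-binding proteins to which several S100 proteins attach, went both ways. Of 10 that passed the filter, 4 rose and 2 fell, against 23.2% of all genes called higher and 17.4% lower, and the median change was 0.43. Anxa11 rose 2.28-fold (adjusted p = 0.00328 in limma), Anxa1, the partner of S100a11, 2.01-fold (adjusted p = 0.0132), and Anxa3 1.82-fold (adjusted p = 0.00671). Anxa6 fell 2.07-fold (adjusted p = 0.00608) and Anxa9 1.81-fold (adjusted p = 0.0108). Anxa2, the partner of S100a10, had a change of 0.52 ± 0.15 (SE) that missed the threshold (adjusted p = 0.0574). Calls of Anxa1 needed both WGP arrays (adjusted p = 0.0596 without WGP replicate 1 and 0.0721 without WGP replicate 2). That of Anxa3 needed medium replicate 2 (0.0529 without it), and that of Anxa9 medium replicate 2 (0.0732) and WGP replicate 2 (0.0655). The count of annexins called higher fell with each array left out, and was 2 with no filter on dim probes. It was 7 with median scaling and with the medium replicate 3 file averaged with medium replicate 1. The count called lower fell without either replicate 2, and was 1 with no filter.

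Receptors through which extracellular S100A8/A9 and serum amyloid A are known to signal also went both ways. Of 9 that passed the filter, 3 rose and 3 fell, beside 23.2% higher and 17.4% lower among all genes, with a median of 0.28. The Toll-like receptor gene Tlr2 rose 5.63-fold (adjusted p = 0.0016 in limma), the scavenger receptor Cd36 2.94-fold (adjusted p = 0.00207) and the lipopolysaccharide co-receptor Cd14 2.25-fold (adjusted p = 0.00398). The purinergic receptor P2rx7 fell 2.56-fold (adjusted p = 0.00371), the lipoprotein receptor Scarb1 1.69-fold (adjusted p = 0.0101) and Tlr4, the receptor of S100A8/A9 and lipopolysaccharide, 1.44-fold (adjusted p = 0.0245). Tlr4 was called by no fit that left out an array, with an adjusted p of 0.0699 without medium replicate 1, 0.11 without medium replicate 2, 0.0771 without WGP replicate 1 and 0.143 without WGP replicate 2. Scarb1 had 0.0616 without medium replicate 2 and 0.0736 without WGP replicate 2. Ager, Fpr1 and Fpr2, the RAGE and formyl peptide receptors, had no probe past the filter.

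Transcription factors known to act on Saa3, S100a8 or S100a9 were mostly higher with WGP. Of 14 that passed the filter, 9 rose and 3 fell, where 23.2% of all genes were called higher and 17.4% lower, and the median change was 0.83. The list was chosen with earlier results of these data known, so its share cannot be read as an excess over all genes. Cebpb rose 6.35-fold (adjusted p = 0.00136 in limma), Hif1a 4.36-fold (adjusted p = 0.0015) and Atf4 3.29-fold (adjusted p = 0.00666), and all 3 stayed called when any array was left out. Ahr fell 1.86-fold (adjusted p = 0.0324), Nfkbiz 1.68-fold (adjusted p = 0.016) and Cebpd 1.48-fold (adjusted p = 0.0416). Under normexp scaled to the 75th percentile, the change of Ahr was -0.058 (adjusted p = 0.607) and that of Nfkbiz -0.11 (adjusted p = 0.352). The count called higher was 6 to 8 with an array left out. The count called lower was 1 without medium replicate 1 (Nfkbiz) or without WGP replicate 1 (Ahr), and 0 without medium replicate 2 or WGP replicate 2.

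Of 26 other antimicrobial effectors listed, 12 passed the filter, of which 2 rose and 2 fell. As reported, these were no larger shares than the 23.2% higher and 17.4% lower among all genes. The median over the 10 well above background on all 4 arrays was 0.16. The count called higher was 4 with quantile normalization, with median scaling and with the replicate block, and 1 with no filter on dim probes. The count called lower was 3 with the replicate block. Cstb, the gene of the cathepsin inhibitor cystatin B, rose 2.84-fold (adjusted p = 0.00444 in limma), and Slc11a1, the metal transporter of the phagosome membrane, 1.90-fold (adjusted p = 0.00771). The secreted ribonuclease genes Rnase4 and Ang fell 5.0-fold (adjusted p = 0.00223) and 1.64-fold (adjusted p = 0.0113). Leaving out medium replicate 2 gave Slc11a1 an adjusted p of 0.0541 and Ang 0.0623, and Ang had 0.0647 without WGP replicate 1 and 0.0765 without WGP replicate 2. The siderophore-binding Lcn2 had a change of 0.20 ± 0.69 (SE, adjusted p = 0.835), and Camp, the cathelicidin gene, had 0.63 ± 0.19 (SE, adjusted p = 0.0669).

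**Figure D4:**
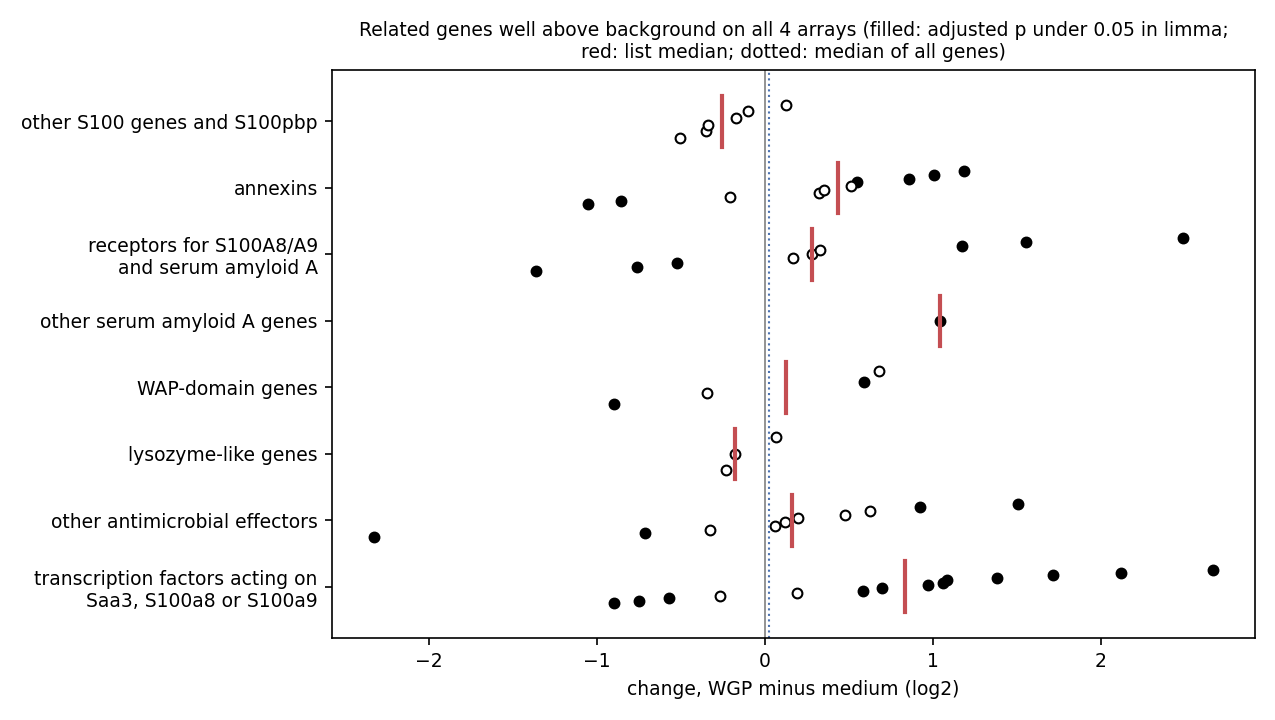
Change, WGP minus medium on the log2 scale, of the related genes well above background on all 4 arrays, by list. Filled points passed an adjusted p of 0.05, red bars are list medians and the dotted line is the median of all genes, 0.028. The transcription factors had a median of 0.83, the annexins of 0.43 and the other S100 genes with S100pbp of -0.26.

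The reading of each of the 10 genes under 17 other ways of processing is drawn beside the value reported. Saa3 and Slpi passed the test in all 17, with changes of 2.40 to 3.77 and of 1.91 to 3.52. When arrays were scaled to their median, all changes shifted upward, and the median over all genes was 0.19 where it had been 0.028. Under it the share of higher genes among all called was 72.7%, against 57.2%.

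**Figure D5:**
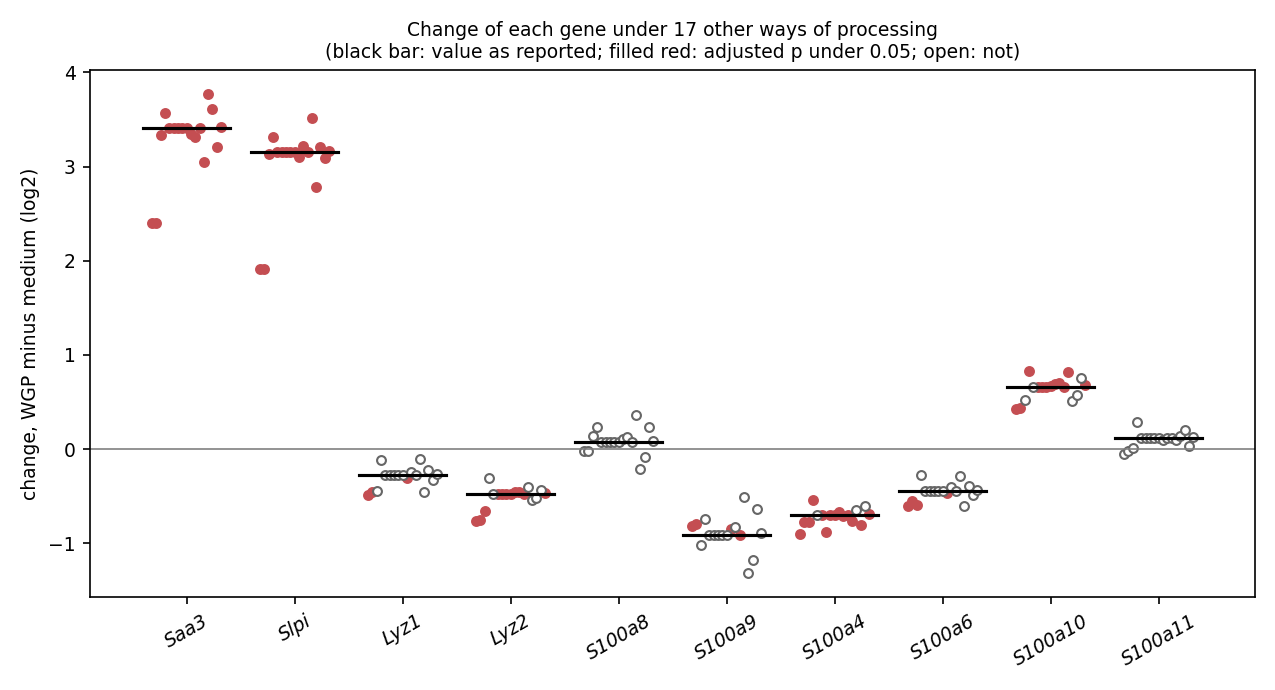
Change of each of the 10 genes, WGP minus medium on the log2 scale, under 17 other ways of processing. Filled points passed an adjusted p of 0.05 and black bars are the values reported. Saa3 and Slpi lay above 1.9 in all 17, and S100a8 and S100a11 were called in 0 of them.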

How the data were processed

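Intensities of 6 deposited scanner files were used, whose scanner software was Agilent Feature Extraction, version 10.7.3, per the submitters' processing notes. Processed signals, per the file headers, are background-subtracted and spatially detrended, with no normalization between arrays. The log2 value table deposited by the authors was an alternative only. After centring each probe it correlated at 1 with the scaled scanner values over 39394 probes. Medians of its medium columns were -0.015, 0.16 and 0.10, and those of its WGP columns 0.10, 0.13 and 0.10. The baseline of its centring is unknown.

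Control spots were dropped, as were 118 to 183 outlier spots per array. Saturated spots numbered 0. The log2 processed signal was reduced by the array's 75th percentile and averaged over the spots of a probe. The processed signal of WGP replicate 3 was 1.3 times that of WGP replicate 1, to within 0.498%, and these were averaged. Medium replicate 3 lay within 0.695% of the average of the other medium arrays and was left out. Gene names came from matching probe accessions to a RefSeq table of GRCm38.p6 (67.9% of 39429 probes matched). The array design is on mm9, so no probe coordinates are given, and the coordinates of upstream windows are those of the RefSeq table. A probe was kept (18442 were) if 1 group had it well above background on both its arrays, and the brightest named probe stood for a gene.

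The comparison used lmFit and eBayes of limma 3.58.1 (R 4.3.3), with 2 residual degrees of freedom, 2.19 prior ones, and p-values adjusted by Benjamini-Hochberg. The code was tested on simulated arrays. As a check of pairing, both arrays of a slide deviated from their group means with a correlation of 0.14. Per the file headers, replicate numbers 1 and 2 are a slide and a scan each. The headers put medium replicate 3 on a slide of its own but in the scan of replicate 1. Normexp used the median signal, since the files used here hold no mean signal, with an offset of 50. All 10 genes are named, and of each list up to 3 genes called higher and 3 called lower with the largest changes. The other genes named were chosen after their values were seen. Members and lists were chosen with earlier results of these data known.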

Additional observations from a re-analysis of the deposited data

How the results depend on the processing

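The 17 alternatives were other background corrections and scalings, filters on dim probes, probe choices, uses of the replicate 3 files, the replicate block, each array left out, and the deposited value table. The count of all genes called, 4441 as reported, was 1532 with no filter on dim probes, 7449 with every deposited file as its own sample, and 1715 to 3344 with an array left out, where the single array left is taken to vary as the other group does. With the replicate block it was 4090. Of the 10 genes, 2 were called lower as reported. That count was 5 with normexp and 75th percentile scaling, 5 with normexp and quantile normalization, 5 with every file as its own sample, 1 with median scaling, 0 with no filter, and 0 to 1 with an array left out. The count called higher, 3, was 2 or 3 throughout.

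Gained calls were those of Lyz1 (-0.49 and -0.46 with normexp and either scaling, -0.30 with every file as its own sample), S100a6 (-0.60 and -0.56 with normexp, -0.59 with quantile normalization, -0.46 with every file), and S100a9 (-0.82 and -0.80 with normexp, -0.85 with every file, -0.91 with the replicate block). Counting every file treats copies as samples. Lost calls were those of Lyz2 (-0.31 with median scaling, -0.47 with no filter), S100a4 (-0.70 with no filter) and S100a10 (0.52 with quantile normalization, 0.66 with no filter). With an array left out, changes were -0.54 to -0.41 for Lyz2, -0.80 to -0.61 for S100a4 and 0.51 to 0.82 for S100a10. The sign turned for S100a8 (-0.015 and -0.019 with normexp, -0.22 to 0.36 with an array left out) and S100a11 (-0.046 and -0.025 with normexp), neither called. The block changed no other call of the 10 genes. With no filter, dim genes enter the fit. The causes of the gained and lost calls were not tested. Of 272 counts over the fixed lists, 211 stayed within 1.5 times of the count reported or were 0 in both. The 2 arrays a group limit the precision of every value.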
